A study of Ovis aries with 40 samples.

Results

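The glucocorticoid receptor and a set of genes that act before it or respond to it were followed through sheep lung development. They are the receptor NR3C1, the steroid-converting enzymes HSD11B1 and HSD11B2, and the response genes FKBP5, TSC22D3, PER1, ZBTB16, KLF9 and DUSP1. They were found by symbol and are 9 of the 24478 genes in the count tables. Cortisol enters the cell and binds the receptor, which is held in the cytoplasm by chaperones. The loaded receptor moves to the nucleus and turns genes on or off. In the fetal lamb, cortisol from the adrenal cortex rises towards birth and is known to drive the maturation of the lung, including surfactant and fluid clearance.

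Bulk RNA was sequenced from proximal and distal lung of American Romney sheep at gestational days 65, 80, 100, 120 and term (day 147 in the labels), in 20 conditions with 2 libraries each, 40 in all. WT animals came from ordinary breeding, and those at term had been born naturally, with a time from birth to collection that is not analysed here. CF animals (CFTR-/-) were clones, made by nuclear transfer from 1 male line of fetal fibroblasts whose CFTR gene was targeted in exon 2 (CF 60), and no cloned WT group is analysed here. Day 50 is not analysed here. Both regions of a condition were taken from the same animals. The 2 WT libraries at day 100 carry 1 animal label in each region, and WT replicate 2 at day 65 shares a label with CF replicate 2 at day 100, so each was placed by its title. The comparisons ask how lung transcripts change with gestational age and whether CF lungs differ from WT lungs, here for the glucocorticoid pathway.

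The libraries differed in ways that touch these genes. Total counts were 24670355 to 43700012 in the 16 WT libraries before term and 85773994 to 103139483 in the prenatal CF libraries, also 16, and all 8 term libraries lay between 115937437 and 126749480. In a comparison of CF with WT, genotype and cloning cannot be told apart. Before term depth cannot be told apart from them either, except where libraries were thinned to equal depth. In the WT courses term and depth cannot be told apart, and those fits were not thinned. Sex, and at term the manner of birth and the time to collection, were not analysed here. Their part in differences between genotypes or time points was not tested. A length balance was computed per library as a possible sign of RNA quality, which was not tested against another measure. It is the mean log2 deviation of genes of 5000 bases or more minus that of genes of 1500 bases or less. Before term it ran from -0.24 to 0.20 in WT lung and from -0.90 to 0.92 in CF lung. Term libraries of WT lung had values from -0.90 to -0.27 and those of CF lung from -0.81 to -0.48, all 8 below every WT library before term. CF proximal replicate 2 at day 120 had the lowest value before term. CF replicate 2 at term also stood apart from the other term animals: the summed level of 12 hypoxia genes was 4765 CPM (counts scaled to a common library size) in its proximal and 4978 in its distal library, against 596 to 809 in the other 6 term libraries. The summed level of 9 lung epithelium markers was at least 643 CPM in each library, although SCGB1A1 was at 0 in both WT proximal libraries at day 65.

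Every member was measured in all 40 libraries, from at least 13 reads upwards, and passed the filter on low counts in each fit. Levels are given as CPM after TMM scaling over the 40 libraries, for replicate 1 and then replicate 2 of a condition, and a log2 fold change is given ± its standard error. A gene is called changed where its p-value in edgeR's quasi-likelihood F test, adjusted over the whole table, is at most 0.05. The stricter limits by which the study chose its DEGs (adjusted p at most 0.001 and a change of at least 0.58 in log2) are given beside it. Divided by exon length, which allows different genes to be compared, the mean over all libraries was highest for TSC22D3 at 65.8 CPM per kb and DUSP1 at 47.4. NR3C1 followed at 14.7, FKBP5 at 9.61, KLF9 at 6.48 and PER1 at 5.36 CPM per kb. ZBTB16 at 2.05, HSD11B2 at 1.39 and HSD11B1 at 0.855 CPM per kb were the lowest of the 9.

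By the mean of 2 libraries, term was the highest time point for 7 of the 9 genes in every course. They were HSD11B1, FKBP5, TSC22D3, PER1, ZBTB16, KLF9 and DUSP1. Not every rise to term was called in CF lung. In CF distal lung the libraries at day 120 overlapped those at term for PER1 and HSD11B1. The 7 genes reached their term levels in different ways. FKBP5 fell between days 65 and 120 and then rose steeply. In WT lung KLF9 and DUSP1 had already risen by day 120, while TSC22D3, ZBTB16 and HSD11B1 had no called change before term in any course. NR3C1 and HSD11B2 were not highest at term in any course. In bulk tissue, more cells of a type and more RNA per cell cannot be told apart.

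**Figure D1:**
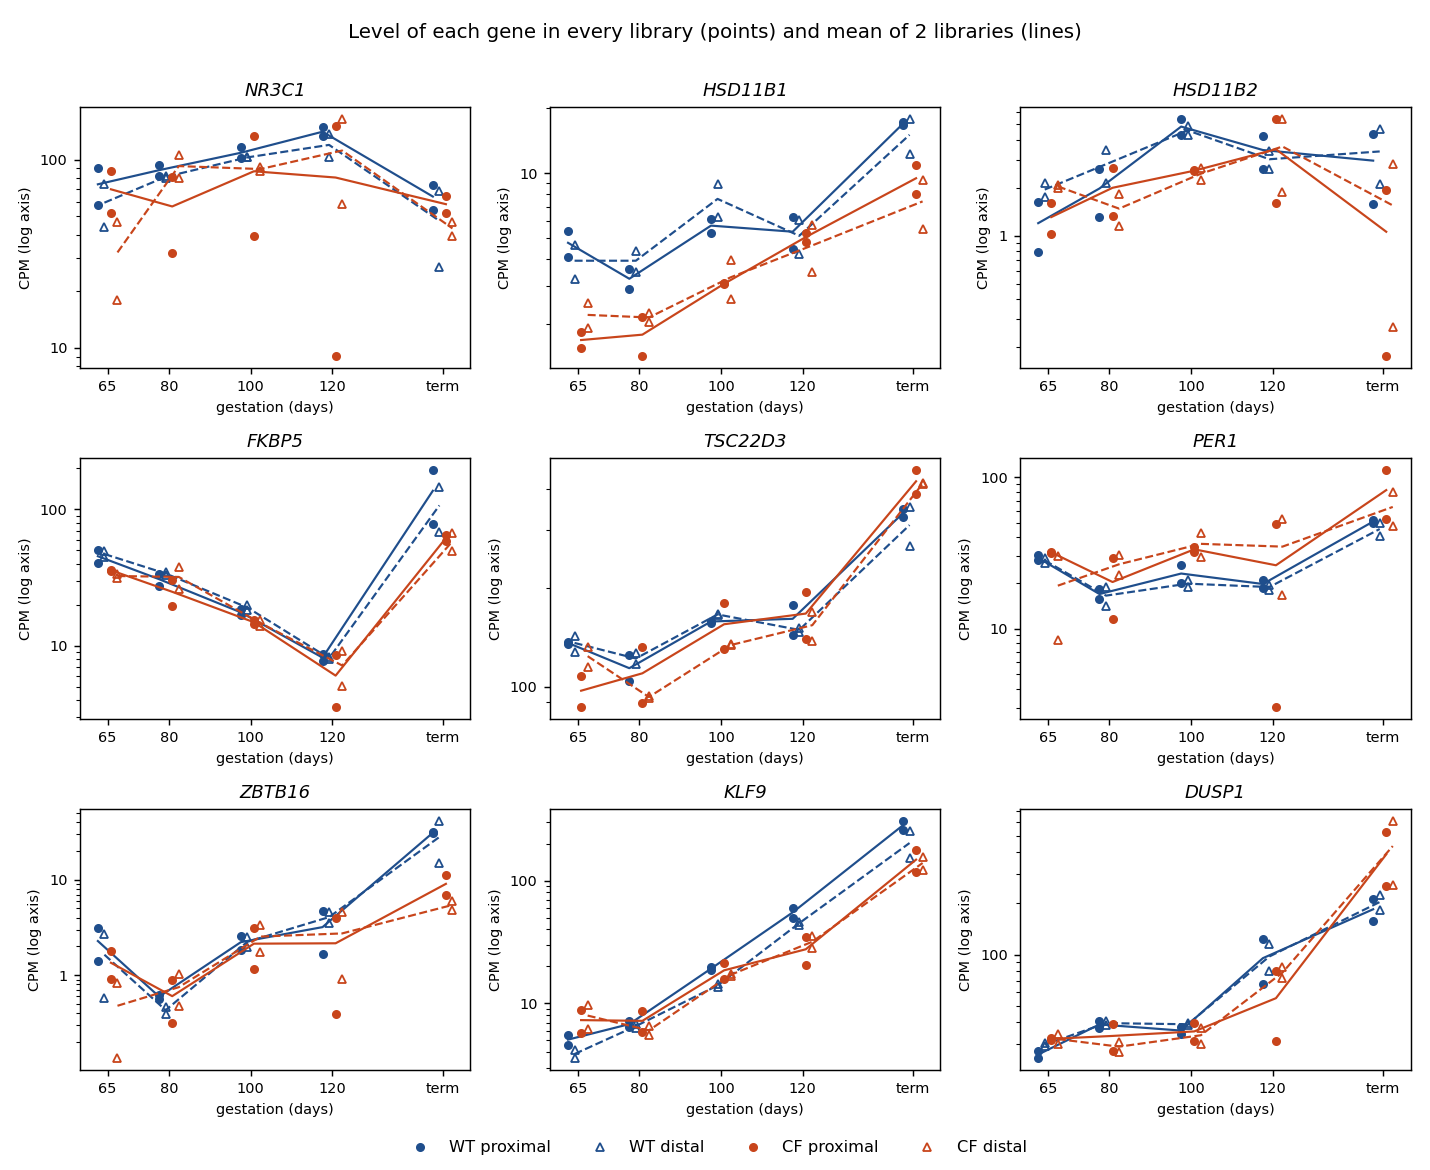
Level of each gene in CPM (log axis) against gestation in days, with term drawn at day 147, for WT (blue) and CF (orange) proximal lung (filled circles, solid lines) and distal lung (open triangles, dashed lines). Each point is 1 library and each line joins the means of 2 libraries, with points shifted sideways to keep them apart. FKBP5 is lowest at day 120 and highest at term in the 4 courses, and CF proximal replicate 2 at day 120 lies far below its partner for NR3C1, PER1 and ZBTB16.

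NR3C1 encodes the glucocorticoid receptor (Oar_v4.0 chr5:51659638-51777492, minus strand, 5481 bases of exon). In WT proximal lung it read 91.0 and 57.2 CPM at day 65, 149 and 133 at day 120, and 73.5 and 54.0 at term. WT distal lung gave 74.5 and 43.8 CPM at day 65, 137 and 104 at day 120, and 68.0 and 26.8 at term. In both WT regions the day 120 libraries were above those of day 100 and of term without overlap. From day 120 to term NR3C1 fell by 1.15 ± 0.21 on the log2 scale in proximal lung (adjusted p = 0.00514) and by 1.37 ± 0.39 in distal lung (adjusted p = 0.0321). The distal call was lost in 5 of the 10 fits that left out 1 library, where the highest adjusted p was 0.156, and the change there ran from -2.17 to -0.89. With the WT day 100 libraries summed to 1 sample the adjusted p was 0.0544. The length balance moved with this fall, from -0.08 to 0.20 in the 4 WT libraries at day 120 to -0.90 to -0.27 at term. Its lowest value there was in distal replicate 2, the library with 26.8 CPM of NR3C1, and without it the distal change was -0.89 (adjusted p = 0.0615).

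In CF lung no change of the receptor was called from day 120 to term, and its replicates lay far apart at day 120. CF proximal libraries at day 120 read 152 and 9.10 CPM, and those at term 51.9 and 64.3. The change was -0.50 ± 1.08 (adjusted p = 0.888). Without CF proximal replicate 2 at day 120 the change of NR3C1 was -1.42 (adjusted p = 0.251), and without replicate 1 it was 2.64, so the sign rested on a single library. CF distal libraries read 165 and 58.2 CPM at day 120 and 39.5 and 46.9 at term, a change of -1.40 ± 0.52 (adjusted p = 0.0769). NR3C2, the mineralocorticoid receptor, which also binds cortisol, was not called in any of the 4 comparisons of term with day 120, with changes from -0.35 to 0.14.

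HSD11B1 (chr12:71628009-71691281, minus strand, 6589 bases) is the enzyme that turns inactive cortisone into cortisol inside cells. It was low before term and rose at term in WT lung. In WT proximal lung it read 6.28 and 4.45 CPM at day 120 and 16.7 and 17.3 at term, a rise of 1.66 ± 0.28 (adjusted p = 0.00327). WT distal lung read 6.07 and 4.22 CPM at day 120 and 12.3 and 17.9 at term, a rise of 1.54 ± 0.35 (adjusted p = 0.0135) whose call was lost in 2 of 10 leave-one-out fits (1.19 to 1.82). CF lung also had its highest mean at term, 8.03 and 11 CPM in proximal and 5.55 and 9.30 in distal lung. The change from day 120 was not called there, at 0.87 ± 0.41 and 0.68 ± 0.41 (adjusted p = 0.363 and 0.243). The CF distal libraries at day 120, 3.50 and 5.78 CPM, overlapped those at term.

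HSD11B2 (chr14:34288685-34294412, plus strand, 1859 bases) works the other way and inactivates cortisol, and is best known for shielding the mineralocorticoid receptor in kidney. It was called in no comparison. Levels were 0.789 to 5.41 CPM in the 32 libraries before term and 1.58 to 4.66 CPM in the 4 WT libraries at term. At term CF replicate 1 read 1.95 CPM in proximal and 2.83 in distal lung, while CF replicate 2 read 0.177 and 0.268 CPM. Both low values came from the animal with the highest level of hypoxia genes, and the part of that state in them was not tested. Per unit of exon length, the ratio of HSD11B1 to HSD11B2 was 0.228 to 1.94 in the libraries before term. At term it was 1.09 and 3.08 in WT proximal, 0.742 and 2.4 in WT distal, 1.16 and 17.5 in CF proximal and 0.554 and 9.80 in CF distal lung, so replicate 2 was above replicate 1 in each pair.

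FKBP5 (chr20:9643649-9764833, minus strand, 3859 bases) encodes a co-chaperone that lowers the receptor's affinity for cortisol and is itself induced by the receptor. In WT proximal lung it read 50.2 and 40.7 CPM at day 65, 33.9 and 27.6 at day 80, 18.6 and 16.7 at day 100 and 8.72 and 7.68 at day 120, then 78.7 and 195 at term. WT distal lung went from 49.6 and 44.7 CPM at day 65 to 8.01 and 8.24 at day 120 and 68.4 and 145 at term. No neighbouring time points overlapped in either WT course. The same order of time points, from day 120 as the lowest through days 100, 80 and 65 to term, was found in CF lung. CF proximal lung read 35.5 and 36.1 CPM at day 65, 8.52 and 3.58 at day 120 and 58.5 and 64.9 at term, and CF distal lung 33.8 and 31.2, 9.24 and 5.11, and 49.4 and 67.1 CPM.

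The fall of FKBP5 before term was made of small steps, none of which was called by itself. The comparison of day 120 with day 65 was added after these values had been seen. Across it FKBP5 fell by 2.48 ± 0.37 in WT proximal, 2.55 ± 0.31 in WT distal, 2.52 ± 0.43 in CF proximal and 2.13 ± 0.33 in CF distal lung on the log2 scale (adjusted p = 0.00176, 0.00116, 0.0373 and 0.00481). From day 120 to term it then rose by 4.06 ± 0.39, 3.70 ± 0.33, 3.32 ± 0.45 and 3.0 ± 0.34 in the same order (adjusted p = 2.88e-04, 3.85e-04, 0.0343 and 0.00173). With 1 library left out the rise was 3.25 to 4.58 in WT proximal, 3.01 to 4.15 in WT distal and 2.63 to 3.51 in CF distal lung, and was called in each such fit. These were the largest rises of any of the 9 genes in each course. The CF proximal calls were lost in 8 of 10 leave-one-out fits for the fall and 7 of 10 for the rise, with the change at -3.28 to -2.03 and 2.82 to 4.07. Without CF proximal replicate 2 at day 120 the rise was 2.82 (adjusted p = 0.0153).

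The WT term animals differed in FKBP5. Replicate 2 was above replicate 1 in proximal lung (195 against 78.7 CPM) and in distal lung (145 against 68.4). The summed level of 6 leukocyte markers was also higher in replicate 2, at 670 against 452 CPM in proximal and 762 against 358 in distal lung. At day 120 the same sum was 49.4 to 51.1 CPM in WT lung, and at term it was 88.5 to 197 CPM in CF lung. MARCO, a macrophage receptor, was at 0 in both WT distal libraries at day 120, and the other 5 markers were detected. The part of leukocytes in the level of FKBP5 or of any other member was not tested.

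TSC22D3 (chrX:120260650-120327170, plus strand, 2781 bases) encodes GILZ, a leucine zipper protein that carries part of the anti-inflammatory action of glucocorticoids. It varied least of the 9 genes, with a 5.23-fold span between the lowest and highest library. In WT proximal lung it read 144 and 177 CPM at day 120 and 346 and 328 at term, a rise of 1.06 ± 0.13 (adjusted p = 7.27e-04). WT distal lung went from 147 and 151 to 267 and 353 CPM, a rise of 1.04 ± 0.15 (adjusted p = 0.00256). In CF distal lung 138 and 169 CPM became 412 and 416, a rise of 1.43 ± 0.18 (adjusted p = 0.00275). CF proximal lung went from 140 and 194 to 386 and 456 CPM without overlap, but the change of 1.30 ± 0.32 was not called (adjusted p = 0.128).

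KLF9 (chr2:65763659-65795004, plus strand, 8099 bases) is a Krüppel-like transcription factor induced by glucocorticoids and thyroid hormone. It had the longest climb of the set. WT proximal lung read 5.57 and 4.58 CPM at day 65, 7.17 and 6.4 at day 80, 19.7 and 18.8 at day 100, 49.9 and 60.3 at day 120, and 306 and 257 at term. WT distal lung read 4.15 and 3.62 CPM at day 65, 43.8 and 46.3 at day 120 and 252 and 153 at term. No neighbouring time points overlapped in WT lung. From day 65 to term KLF9 rose by 5.78 ± 0.17 in WT proximal and 5.67 ± 0.25 in WT distal lung (adjusted p = 3.91e-07 and 2.89e-06), a 55.5-fold and 52.1-fold difference of mean CPM.

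In CF lung KLF9 rose by 4.35 ± 0.46 in proximal and 4.15 ± 0.28 in distal lung from day 65 to term (adjusted p = 0.00153 and 2.34e-05). CF proximal lung went from 5.77 and 8.87 CPM to 118 and 178, and CF distal lung from 9.75 and 6.18 to 121 and 156. At day 65 CF distal lung exceeded WT by 1.04 ± 0.24 (adjusted p = 0.0239), a call that was lost without either WT library or CF replicate 1 at that day. At term the CF minus WT difference was -0.52 ± 0.23 in distal and -0.93 ± 0.30 in proximal lung and was not called (adjusted p = 0.141 and 0.0910). The difference in the change from day 120 to term between genotypes was not called for KLF9 in either region.

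ZBTB16 (chr15:24016079-24213680, plus strand, 2515 bases) encodes the zinc finger repressor PLZF, one of the genes most strongly induced by glucocorticoids in many cell types. It was low before term and rose at term in WT lung. WT proximal lung read 4.70 and 1.68 CPM at day 120 and 31.3 and 30.8 at term, a rise of 3.27 ± 0.52 (adjusted p = 0.0026). Without replicate 1 at day 120 it was 4.21 and without replicate 2 it was 2.71, and both were called. WT distal lung went from 4.62 and 3.50 to 41.3 and 14.8 CPM, a rise of 2.76 ± 0.67 (adjusted p = 0.0183) whose call was lost in 3 of 10 leave-one-out fits (1.86 to 3.29). In CF lung term levels were 6.85 and 11.3 CPM in proximal and 4.84 and 6.04 in distal lung, below both WT libraries of the same region. The changes from day 120 there, 2.03 ± 1.05 and 0.96 ± 0.88, were not called (adjusted p = 0.412 and 0.440), and ran from 1.17 to 4.48 and from 0.22 to 2.57 with 1 library left out. The change of 4.48 in CF proximal lung was found without replicate 1 at day 120. Day 120 then rested on replicate 2, the library with the lowest length balance before term (-0.90).

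PER1 (chr11:27300535-27315607, minus strand, 6004 bases) is a repressor of the circadian clock that glucocorticoids induce directly. WT proximal lung read 18.4 and 21.0 CPM at day 120 and 50.2 and 51.9 at term, a rise of 1.37 ± 0.17 (adjusted p = 8.32e-04). WT distal lung read 19.5 and 18.1 CPM at day 120 and 50.2 and 40.8 at term, a rise of 1.26 ± 0.18 (adjusted p = 0.00242). CF proximal libraries read 49.4 and 3.04 CPM at day 120 and 53.0 and 112 at term, and CF distal libraries 52.9 and 16.7, then 47.8 and 79.7. Neither CF change was called (1.62 ± 1.01 and 0.84 ± 0.64). Leaving out 1 library gave 0.70 to 4.72 in CF proximal lung and 0.24 to 1.94 in CF distal lung. The 4.72 was found without CF proximal replicate 1 at day 120. Day 120 then rested on replicate 2, the library with the lowest length balance before term (-0.90). Of 17 other clock genes, 3 were higher and 1 lower at term in WT proximal lung (24.6% of all genes called), 1 was higher in WT distal (25.8%), none was called in CF proximal (0.356%), and 4 were higher and 1 lower in CF distal lung (23%). Their summed level at term was 1103 CPM in the proximal and 958 in the distal library of CF replicate 2, where PER1 was also highest, against 290 to 344 CPM in the other 6 term libraries, and the part of that animal in these counts was not tested. PER2 and PER3, the other period genes, were not called in any of these comparisons (changes of -0.71 to -0.25 and -0.46 to -0.37). The hour of collection was not analysed here.

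DUSP1 (chr16:4579183-4582302, minus strand, 2050 bases) encodes a phosphatase that switches off MAP kinases, and is induced by glucocorticoids and also, within minutes, by growth factors and stress. WT proximal lung read 34.3 and 37.4 CPM at day 100, 123 and 67.5 at day 120 and 213 and 157 at term. WT distal lung read 38.6 and 39.5, then 115 and 79.9, then 224 and 183 CPM. From day 100 to 120 it rose by 1.43 ± 0.26 and 1.32 ± 0.18 (adjusted p = 0.0233 and 0.00956, or 0.153 and 0.142 with the WT day 100 libraries summed), and from day 120 to term by 0.94 ± 0.25 and 1.04 ± 0.17 (adjusted p = 0.0247 and 0.00419). The proximal rise to term lost its call without replicate 2 at day 120 (0.57, adjusted p = 0.0937) or replicate 1 at term (0.72, adjusted p = 0.118). In CF distal lung 84.2 and 72.8 CPM at day 120 became 258 and 612 at term, a rise of 2.46 ± 0.36 (adjusted p = 0.00462), and without replicate 2 at term it was 1.71 (adjusted p = 0.0086). CF proximal lung went from 79.9 and 31.1 to 254 and 523 CPM, and the change of 2.77 ± 0.51 was not called (adjusted p = 0.0698).

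**Figure D2:**
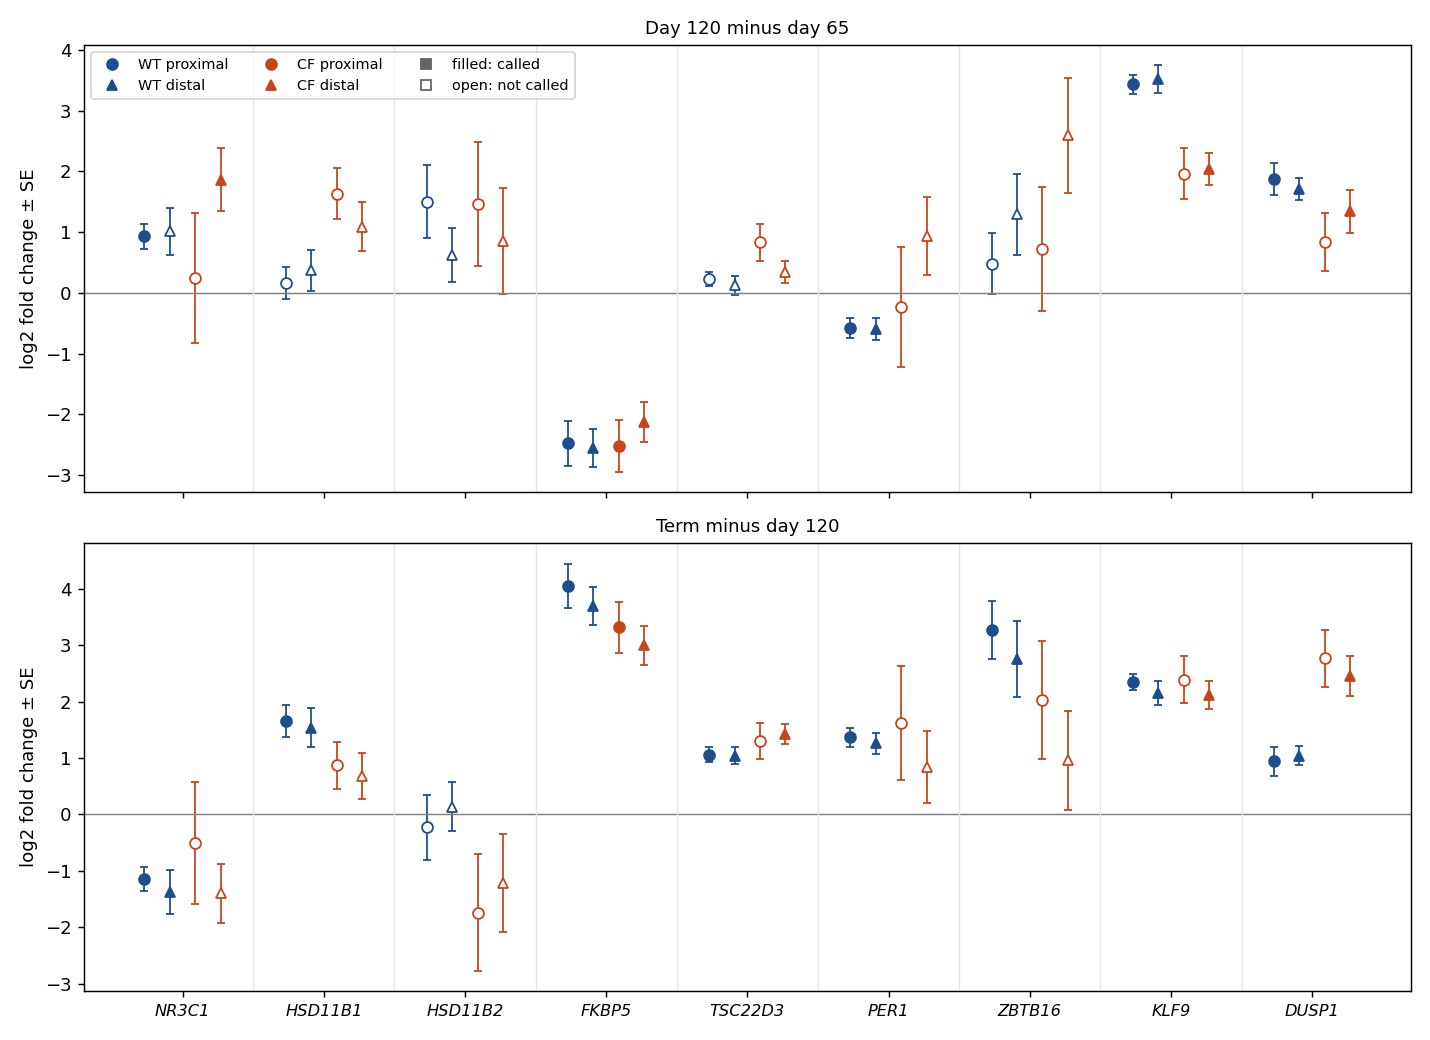
Log2 fold change ± SE of each gene from day 65 to day 120 (top) and from day 120 to term (bottom) in the 4 courses of 10 libraries, with filled symbols for called genes. FKBP5 lies at -2.13 or lower in the top panel and at 3.0 or higher in the bottom panel in all 4 courses, while NR3C1 lies below 0 in the bottom panel.

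Counted together, 8 of the 9 genes were called between day 120 and term in WT proximal lung, 7 higher and 1 (NR3C1) lower, where 24.6% of the 18186 genes tested were called (13.5% higher and 11.1% lower). In WT distal lung the count was again 7 higher and 1 lower, and 25.8% of all genes were called (13.5% higher and 12.3% lower). HSD11B2 was the exception in both. The median change of the 9 genes was 1.37 and 1.26, against 0.06 and 0.04 over all genes. In CF distal lung 4 genes were called higher (FKBP5, TSC22D3, KLF9 and DUSP1), with 23% of all genes called, and a median of 0.96 against -0.06. CF proximal lung gave a call for FKBP5 alone, with 0.356% of all genes called, although the median was 1.62 against -0.12. DESeq2 called 4 of the 9 genes in CF proximal lung, and 7.09% of all genes. The DEG limits kept FKBP5, KLF9, TSC22D3 and PER1 in WT proximal lung (2.14% of all genes), FKBP5 and KLF9 in WT distal lung (1.15%), and none in CF proximal (0%) or CF distal lung (0.338%).

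Averaged over both genotypes in 1 fit of 20 libraries per region, 6 of the 9 genes were higher at term than at day 120 in proximal lung (11.4% of all genes called). In distal lung 7 were higher and NR3C1 was lower (38.6% of all genes called). From day 65 to term 7 genes were called higher in each WT course (45.1% of all genes in proximal and 42.8% in distal lung). In CF proximal lung HSD11B1, TSC22D3, KLF9 and DUSP1 were called (11.6% of all genes), and in CF distal lung ZBTB16 as well (31.1%). In CF proximal lung the count was 1 without either library at day 65, and in CF distal lung the calls of HSD11B1 and ZBTB16 were each lost in 2 of 10 leave-one-out fits. FKBP5 at term was above day 65 by 1.58 ± 0.35 in WT proximal and 1.15 ± 0.29 in WT distal lung (adjusted p = 0.00522 and 0.0120). Without replicate 2 at term these differences of FKBP5 were 0.78 and 0.46, and without replicate 1 they were 2.10 and 1.61, all called. Without WT distal replicate 2 at day 65 the distal call was lost (adjusted p = 0.0627). The differences in CF lung, 0.80 ± 0.41 and 0.87 ± 0.32, were not called. NR3C1 at term did not differ detectably from day 65 in any course, with changes from -0.36 to 0.46.

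Before term few changes between consecutive time points were called. Of 108 tests, 9 genes in 12 comparisons of consecutive time points, 5 were called: KLF9 from day 80 to 100 and from 100 to 120 in WT proximal lung, KLF9 from day 100 to 120 in WT distal lung, and DUSP1 from day 100 to 120 in both WT regions. All 5 used the WT day 100 libraries, which carry 1 animal label in each region, and with these summed to 1 sample KLF9 in proximal lung alone was called (adjusted p = 0.0252 and 0.0309). KLF9 in distal lung was then 1.70 (adjusted p = 0.119) and DUSP1 1.43 in proximal and 1.32 in distal lung (adjusted p = 0.153 and 0.142), close to the values with both libraries. In WT lung 25 of 54 tests had an unadjusted p under 0.05 and DESeq2 called 13, against 11.7% and 4.44% over all genes. Uncalled steps there reached 2.36 ± 0.73 on the log2 scale for ZBTB16 from day 80 to 100 in distal lung. The share of all genes called in those comparisons was 1.94% and 2.67% in WT proximal and 2.49% in WT distal lung. In the other WT comparisons it was 0.011% from day 65 to 80 in proximal lung, and 0.0164% and 1% from day 65 to 80 and from day 80 to 100 in distal lung. No member was called between consecutive time points in CF lung before term, where 0.0203% and 0.928% of all genes were called from day 100 to 120 in proximal and distal lung and 0% in the 4 earlier steps. There, 9 of the 54 tests had an unadjusted p under 0.05, and DESeq2 called 3, against 7.66% and 1.84% over all genes. Over the whole span from day 65 to 120, KLF9 rose by 3.43 ± 0.15 and 3.52 ± 0.23 and DUSP1 by 1.87 ± 0.26 and 1.71 ± 0.18 in WT proximal and distal lung. In CF distal lung they rose by 2.04 ± 0.26 and 1.34 ± 0.35, and the call for DUSP1 was lost in 7 of 10 leave-one-out fits. NR3C1 rose by 0.93 ± 0.21 in WT proximal lung and 1.86 ± 0.52 in CF distal lung (adjusted p = 0.0152 and 0.0490). These calls were lost in 2 and 8 of 10 leave-one-out fits, with the change of NR3C1 at 0.64 to 1.29 and 0.86 to 2.63. The length balance in CF distal lung was -0.03 and -0.46 at day 65 and 0.92 and -0.12 at day 120. In WT proximal lung it was 0.17 and -0.09, then 0.20 and 0.04. Its part in the rises of NR3C1 was not tested. PER1 was lower at day 120 than at day 65 by 0.58 ± 0.16 in WT proximal and 0.60 ± 0.18 in WT distal lung (adjusted p = 0.0359 and 0.0479), calls that were lost in 8 and 7 of 10 such fits. In all, 5 genes were called over this span in WT proximal (20.1% of all genes), 4 in WT distal (18.2%), 1 in CF proximal (1.66%) and 4 in CF distal lung (12.1%). The DEG limits kept KLF9 in WT proximal (3.17% of all genes), KLF9 and DUSP1 in WT distal (1.56%), and no member in CF proximal (0%) or CF distal lung (0.338%).

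Between genotypes, HSD11B1 was called before term in both regions. Averaged over the 4 prenatal time points it was lower in CF than in WT by 0.83 ± 0.16 on the log2 scale in proximal lung (adjusted p = 0.00325) and by 0.76 ± 0.19 in distal lung (adjusted p = 0.00702). The edgeR test called no other member in either region, where 20.6% and 32.3% of all genes were called. For TSC22D3 the distal difference was -0.20 (adjusted p = 0.0776), and with DESeq2, RLE, thinning, the length trend removed or the replicate block it was called (adjusted p = 0.00896 to 0.0452). DESeq2 called 37% of all genes there. The lower level of HSD11B1 was seen at the earlier time points. At day 65 WT proximal lung read 5.42 and 4.12 CPM and CF 1.55 and 1.84, and at day 100 WT distal lung read 6.31 and 8.93 and CF 3.99 and 2.62. WT and CF libraries did not overlap at days 65, 80 and 100 in either region. At day 120 they did, with differences of -0.08 ± 0.32 in proximal and -0.14 ± 0.38 in distal lung. With all libraries thinned to equal depth the mean difference was -0.79 in both regions, called in each, and it was called in every fit that left out 1 library, with a range of -0.91 to -0.77 for proximal lung and of -0.88 to -0.70 for distal lung. The expression of this enzyme in cloned WT animals was not analysed here.

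The other 8 genes differed by -0.47 to 0.47 on average before term and were not called. Without CF proximal replicate 2 at day 120, PER1 was higher in CF by 0.55 in proximal lung (adjusted p = 0.0466), against 0.33 ± 0.38 with it. At single prenatal time points no member was called in proximal lung, where 0.167%, 0.0885%, 0.383% and 1.35% of all genes were at days 65, 80, 100 and 120. In distal lung 1 was called, KLF9 at day 65, where 5.23% of all genes were, against 5.92%, 5.3% and 4.38% at days 80, 100 and 120. In proximal lung 4 of these 36 tests had an unadjusted p under 0.05 and DESeq2 called 3, where 13.3% and 4.91% of the tests over all genes were so. In distal lung DESeq2 called 2 of 36, against 11.7% over all genes.

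At term, DUSP1 was higher in CF distal lung than in WT by 1.12 ± 0.29 (adjusted p = 0.0197), where 15.2% of all genes were called. It was the only call by edgeR among the 9 genes, of which 6 had an unadjusted p under 0.05 (30.6% of all genes did) and 4 were called by DESeq2 (22.8% of all genes). The call was lost without CF replicate 2, where the difference was 0.34 (adjusted p = 0.377). It was also lost without either WT distal library at term (1.24 and 0.95, adjusted p = 0.0608 and 0.115). CF replicate 2 had the highest summed level of 16 immediate early genes, 1218 CPM in proximal and 1303 in distal lung, against 448 to 845 in the other 6 term libraries. FOS, an immediate early gene, was higher in CF distal lung by 1.97 ± 0.53 (adjusted p = 0.0233). The parts of the immediate early response, and of birth and the time to collection, in the level of DUSP1 were not tested. In proximal lung the difference for DUSP1 was 1.07 ± 0.42 (adjusted p = 0.158), and no member was called, where 6.09% of all genes were. There, 4 of the 9 genes had an unadjusted p under 0.05 (19.9% of all genes), and DESeq2 called 1, HSD11B1 (12.8% of all genes).

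For FKBP5, KLF9, ZBTB16 and HSD11B1 the fitted CF minus WT difference at term was below 0 in both regions without passing the test. The CF libraries lay below both WT libraries of their region for these genes, except for KLF9 in distal lung, where CF read 121 and 156 CPM and WT 252 and 153. For FKBP5 the difference was -1.15 ± 0.40 in proximal and -0.85 ± 0.32 in distal lung (adjusted p = 0.116 and 0.0832). Without WT replicate 2 at term it was -0.35 and -0.23 (adjusted p = 0.802 and 0.672), and without WT replicate 1 it was called at -1.66 and -1.32 (adjusted p = 0.0458 and 0.0164). For ZBTB16 it was -1.78 ± 0.86 and -2.33 ± 0.85 (adjusted p = 0.274 and 0.0769), and for HSD11B1 -0.84 ± 0.32 and -1.0 ± 0.38 (adjusted p = 0.155 and 0.0874). Without CF proximal replicate 2 at day 120, which enters this fit through the shared spread, FKBP5, KLF9 and DUSP1 were called in proximal lung at -1.17, -0.95 and 1.06 (adjusted p = 0.0310, 0.0310 and 0.0480).

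**Figure D3:**
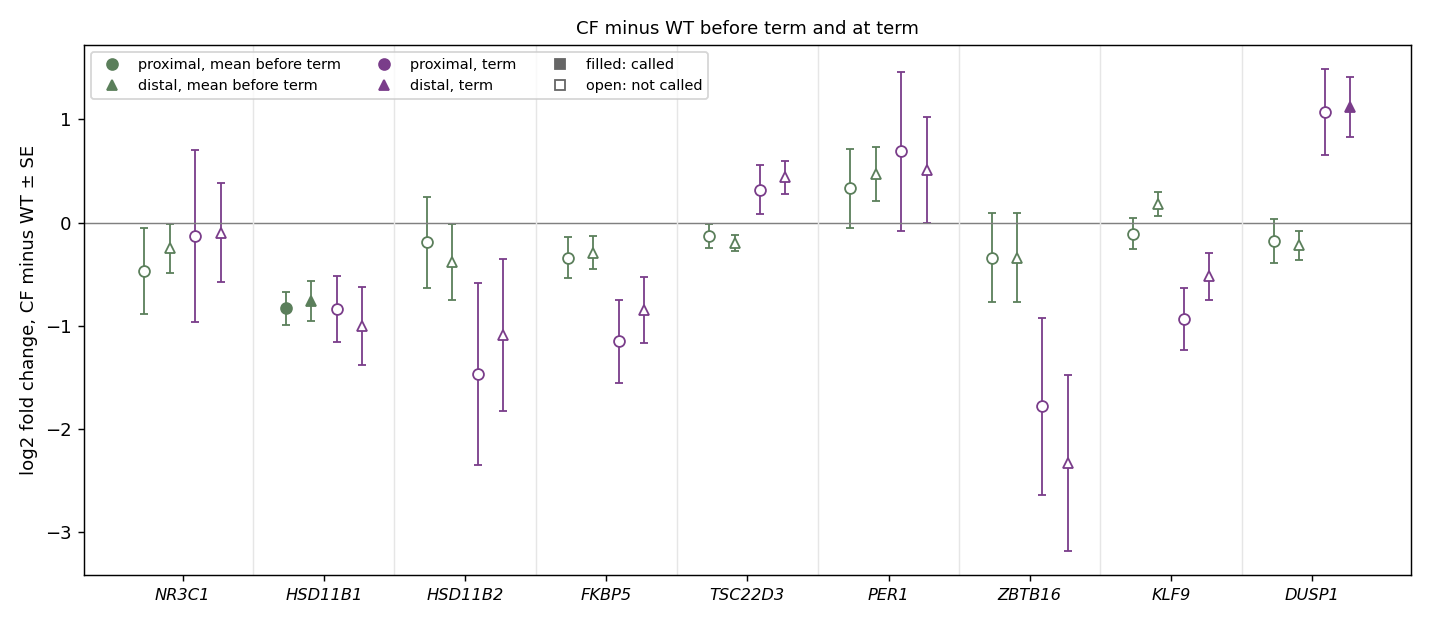
Log2 fold change ± SE of CF minus WT for each gene, as the mean of the 4 prenatal time points (green) and at term (purple), in proximal (circles) and distal lung (triangles), with filled symbols for called genes. HSD11B1 lies between -1.0 and -0.76 in all 4 comparisons and is filled before term, and DUSP1 is filled at term in distal lung.

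Tested directly, the change from day 120 to term was larger in CF than in WT for DUSP1 in distal lung, by 1.43 ± 0.41 (adjusted p = 0.0430). It was the only member called (9.31% of all genes), and it lost its call in 19 of 20 leave-one-out fits. No member was called for this difference in proximal lung (1.78% of all genes), where 1 had an unadjusted p under 0.05 (15.7% of all genes) and DESeq2 called 1 (6.75%). The proximal courses of the 2 genotypes, in which 8 genes and 1 gene were called between day 120 and term, were thus not shown to differ.

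No difference between proximal and distal lung passed the test for these genes. Compared within animals over the 10 conditions, distal minus proximal differences ran from -0.20 to 0.22 and none was called by edgeR or DESeq2 (0.0963% of all genes called by edgeR and 0.428% by DESeq2). The smallest unadjusted p was 0.0292, for HSD11B2. At term the differences ran from -0.51 to 0.41, no member had an unadjusted p under 0.05, and no gene of the 20779 tested was called.

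Further genes of the pathway were counted in lists. Of 31 measured genes, from a list of 32 others known to be induced by glucocorticoids, 15 were higher and 3 lower at term than at day 120 in WT proximal lung (24.6% of all genes called), with a median of 0.76, and 16 were higher and 4 lower in WT distal lung (25.8%), with a median of 0.90. PDK4, a kinase that limits glucose oxidation, rose by 4.8 ± 0.30 and 4.36 ± 0.27 (adjusted p = 5.28e-05 and 7.21e-05). CDKN1C, a cell cycle inhibitor, and RGS2, a regulator of G protein signalling, were lower by 1.29 to 1.45 and 1.23 to 1.36 on the log2 scale. In CF distal lung 18 were higher and none lower (23% of all genes called), with a median of 1.21. DDIT4, which is also induced by hypoxia, led that group at 5.08 ± 0.97 (adjusted p = 0.0106). In CF proximal lung none of the 31 was called (0.356% of all genes), with a median of 1.05. The summed level of the list at term was 5805 CPM in the proximal and 5883 in the distal library of CF replicate 2, against 2680 and 2806 in CF replicate 1 and 2961 to 3226 in WT, and the part of that animal in the CF counts was not tested.

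At term itself this list was split between the genotypes. In CF proximal lung 4 of the 31 genes were higher than in WT and 4 lower (6.09% of all genes called), and in CF distal lung 7 were higher and 4 lower (15.2%). SGK1, a kinase that raises sodium uptake, was lower in CF by 2.57 ± 0.57 in proximal and 2.36 ± 0.48 in distal lung (adjusted p = 0.0171 and 0.00515). GLUL, glutamine synthetase, was lower by 1.36 ± 0.19 and 1.11 ± 0.16 (adjusted p = 0.00147 and 5.34e-04). DDIT4 was higher by 4.68 ± 0.81 and 4.41 ± 0.76 (adjusted p = 0.00495 and 0.00199), beside the hypoxia genes ANKRD37 and EGLN3 at 5.17 to 6.43. The summed level of the hypoxia list was high in CF replicate 2 alone, as given above, and its part in these differences was not tested.

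Genes of lung maturation were also higher at term in WT lung. Of 15, 14 were higher at term in proximal and 12 in distal lung, where 13.5% of all genes were higher in each, and none was lower. The sodium channel subunit SCNN1G rose by 4.61 ± 0.68 and 5.02 ± 0.73 (adjusted p = 0.00193 and 0.00257), and the surfactant protein gene SFTPA1 by 3.40 ± 0.28 and 4.27 ± 0.54 (adjusted p = 1.52e-04 and 0.00157). In CF lung none of the 15 was called in proximal (0.356% of all genes) and 6 were higher in distal lung (23% of all genes called). Their summed level at day 120 was 20760 CPM in CF proximal replicate 2, the library with the lowest length balance before term, and 6616 to 8977 CPM in the other 3 CF libraries, against 3468 to 6062 CPM in WT. At term it was 28904 and 33058 CPM in CF replicate 1 and 11598 and 8373 CPM in CF replicate 2, against 17705 to 27750 CPM in WT. SCNN1B was lower in CF than in WT at term by 2.45 ± 0.46 in proximal and 2.59 ± 0.31 in distal lung (adjusted p = 0.0077 and 1.82e-04).

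Markers of cell types also moved from day 120 to term. The summed level of the 9 lung epithelium markers went from 2430 to 4145 CPM at day 120 to between 10327 and 18212 at term in WT lung. In CF lung it was 2897 to 17231 CPM at day 120, highest in proximal replicate 2, and 5029 to 24473 at term. The summed level of 8 mesenchyme markers went from 9443 to 13390 CPM down to between 3724 and 7059 in WT lung, and from 9530 to 14380 down to between 3545 and 9287 in CF lung. The sum of 6 erythroid genes went from 76.4 to 141 CPM down to between 1.43 and 3.99 in WT and from 29.3 to 60.3 down to between 4.86 and 9.4 in CF lung, and each of the 6 had a mean under 1 CPM in WT lung at term. The sum of 5 adrenal cortex genes was 5.49 to 11.5 CPM at day 120 and 51.1 to 56.9 at term in WT lung, and 10.6 to 13.1 and then 11.8 to 39 CPM in CF lung. CYP17A1, an enzyme of cortisol synthesis, was the only gene of that list with a mean of at least 1 CPM at day 120. No epithelium, mesenchyme or erythroid marker was at 0 in both libraries of a condition at day 120 or term, and the part of cell composition in the changes of the 9 genes was not tested.

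Of 13 chaperones and coactivators, 1 was higher and 3 lower at term in WT proximal lung (24.6% of all genes called), 2 higher and 3 lower in WT distal lung (25.8%), and none was called in CF proximal (0.356%) or distal lung (23%). FKBP4, the co-chaperone that opposes FKBP5, rose by 0.50 ± 0.11 and 0.75 ± 0.14 in WT proximal and distal lung (adjusted p = 0.0115 and 0.0071). Of 6 genes for the supply of steroid, 4 passed the filter on low counts in each WT course and 5 in each CF course. H6PD, which feeds the HSD11B1 reaction with its cofactor, was lower in CF distal lung at term than at day 120 by 2.94 ± 0.85 (adjusted p = 0.0374) and lower than in WT by 3.05 ± 0.76 (adjusted p = 0.0161). The summed level of the 6 genes in CF distal lung was 67 and 17.3 CPM at day 120 and 11.8 and 9.44 at term. Length balances there were 0.92 and -0.12, then -0.81 and -0.68. In WT distal lung at term the sum was 63.9 and 26.1 CPM, at balances of -0.28 and -0.90. The part of the balance in the differences of H6PD was not tested. SERPINA6, the binding globulin of cortisol, was called higher in CF before term in proximal and distal lung (adjusted p = 0.0191 and 0.0492). Its mean was under 1 CPM in both genotypes, and it was at 0 in both WT libraries of each region at day 80, so no fold is given.

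The remaining listed genes with large called changes were these. In WT lung at term NR4A3, an orphan nuclear receptor of the immediate early group, with a mean under 1 CPM in WT lung at day 120, was called higher than at day 120 in proximal lung (adjusted p = 0.0467), and no fold is given. ANKRD37, a hypoxia gene, was lower by 1.69 ± 0.46 in proximal and 1.97 ± 0.58 in distal lung (adjusted p = 0.0261 and 0.0359). In CF proximal lung FOS was higher by 3.06 ± 0.46 (adjusted p = 0.0447). ANKRD37 and EGLN3 were higher in CF distal lung by 5.42 ± 0.99 and 5.25 ± 0.96 (adjusted p = 0.00921 and 0.00929), and NPAS2, an activator of the clock, was lower by 1.92 ± 0.39 (adjusted p = 0.0132). Before term SFTPD, a surfactant protein gene, was higher in CF than in WT by 1.11 ± 0.22 in proximal and 1.29 ± 0.21 in distal lung (adjusted p = 0.00359 and 3.19e-04). ATP1B1, a subunit of the sodium pump, was lower in CF by 0.90 ± 0.11 and 0.79 ± 0.08 (adjusted p = 1.69e-04 and 1.07e-05), and ANXA1, an annexin with anti-inflammatory action, by 0.52 ± 0.15 and 0.95 ± 0.10 (adjusted p = 0.0259 and 9.42e-06). PER2, with a mean under 1 CPM in WT lung before term, was called higher in CF proximal lung before term (adjusted p = 0.0433), and no fold is given. EGR3, an immediate early transcription factor with a mean under 1 CPM in WT lung before term, was called higher in CF distal lung before term (adjusted p = 0.0213), and SCNN1B was lower by 0.49 ± 0.15 (adjusted p = 0.0223).

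Patterns over the 20 conditions were compared by Pearson's r of mean log2 CPM, as a description, since the conditions share libraries, animals and depth. TSC22D3, ZBTB16, KLF9, DUSP1 and HSD11B1 were alike at r = 0.74 to 0.92. FKBP5 stood apart from KLF9 (r = 0.21) and was most like PER1 (r = 0.60). NR3C1 was unlike each of the other 8 (r = -0.42 to 0.38). Among the 11821 genes searched, those most like KLF9 were HPCAL1, LRRFIP1 and TMOD1 (r = 0.98 each), and those most like DUSP1 were NOSTRIN, PYGL and EZR (r = 0.98 each). TSC22D3 was followed most closely by LGALS3 (0.98), GGA1 and ATP6V0B (0.97 each), and HSD11B1 by RAP1B (0.95), PMP22 and CRLF3 (0.94 each). For ZBTB16 they were LRRC16A (0.95), CCND3 and ZDHHC9 (0.94 each). The nearest to FKBP5 were SRXN1 (0.93), TKT (0.90) and ANGPTL4 (0.89), and to PER1 LPCAT1 (0.88), CHKA (0.87) and RAPGEFL1 (0.86). HSD11B2 was most like LURAP1L, TDRP (0.86 each) and CCDC80 (0.85), and NR3C1 was most like BOD1L1, AFF4 (0.97 each) and KIAA0355 (0.95).

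**Figure D4:**
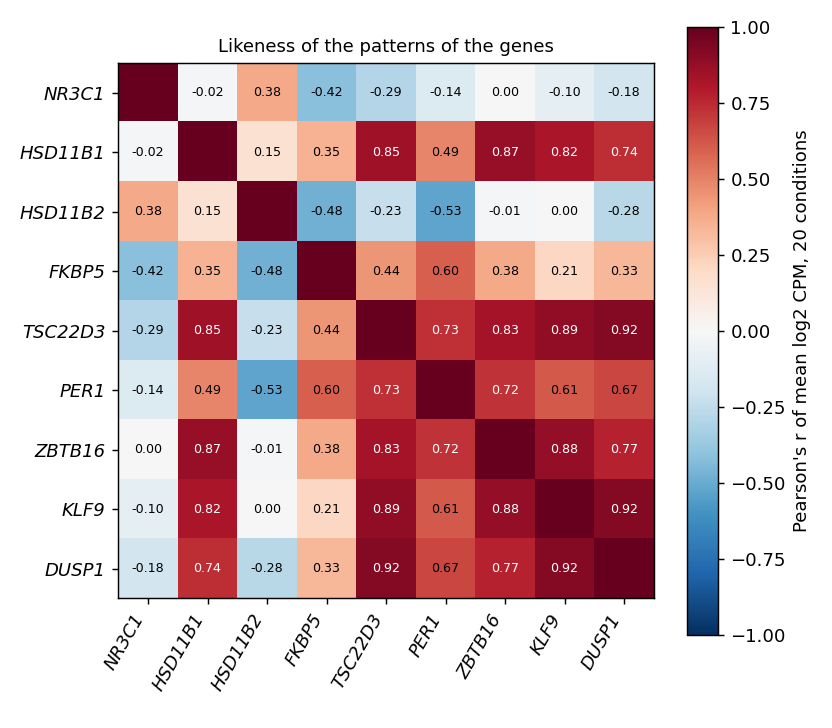
Pearson's r of mean log2 CPM over the 20 conditions for each pair of the 9 genes, from -1 (blue) to 1 (red). TSC22D3, ZBTB16, KLF9, DUSP1 and HSD11B1 are at 0.74 to 0.92 with each other, and NR3C1 is at 0.38 or less with every other gene.

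Within conditions, part of the spread between the 2 libraries moved with the length balance. Over 20 conditions, the difference between replicates 1 and 2 in log2 CPM followed their difference in length balance with r = 0.96 for NR3C1, 0.85 for ZBTB16, 0.83 for PER1 and -0.80 for TSC22D3, and with r = -0.10 for HSD11B1. NR3C1 differed by 4.06 between the CF proximal libraries at day 120, where the balance differed by 1.65. The remaining genes lay between -0.59 for HSD11B2 and 0.55 for DUSP1. The balance was also lower at term than at day 120 in WT lung, so it moved with the changes of these genes there. In CF distal lung it was lower too, at 0.92 and -0.12 at day 120 and -0.81 and -0.68 at term. With a smooth trend on gene length removed from each library, NR3C1 fell from day 120 to term in WT lung by 1.05 ± 0.20 in proximal and 1.22 ± 0.32 in distal lung (adjusted p = 0.00576 and 0.0247). ZBTB16 rose by 3.19 ± 0.51 and 2.69 ± 0.67 and PER1 by 1.49 ± 0.18 and 1.47 ± 0.16. TSC22D3 rose by 1.01 ± 0.13 and 1.01 ± 0.14, and each of these stayed called. The trend removed is an average over genes of like length. It does not take out a larger shift of a single gene, such as the 4.06 of NR3C1. The part of the length balance in these changes was therefore not tested.

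**Figure D5:**
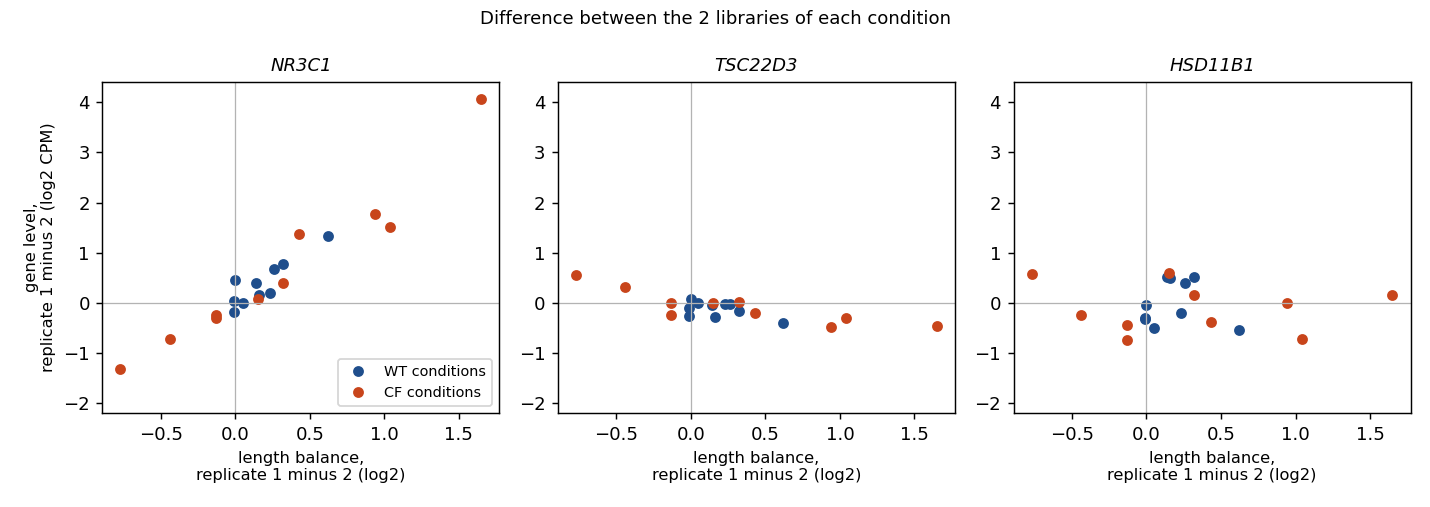
Difference between replicates 1 and 2 in the level of NR3C1, TSC22D3 and HSD11B1 (log2 CPM) against their difference in length balance (log2), with 1 point for each of the 20 conditions, WT in blue and CF in orange. Points rise along a line for NR3C1 (r = 0.96), fall for TSC22D3 (r = -0.80) and show no slope for HSD11B1 (r = -0.10).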

How the data were processed

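The authors aligned paired reads of oligo dT libraries with STAR (build Oar_v4.0), and the deposited values are whole-number counts per gene from featureCounts 1.6.3, with no normalization. The strand setting and the annotation release are not given in the sources used here. Counts were analysed with edgeR 4.0.16 in R 4.3.3: genes were kept by filterByExpr (minimum count 10, total 15), scaled by TMM and tested with the quasi-likelihood F test and Benjamini-Hochberg adjustment over all genes kept. There were 4 fits of 10 libraries (1 for each genotype and region), 2 of 20 libraries (1 for each region) and 1 of 40 libraries with the animal as a block (distal against proximal). DESeq2 1.42.0, size factors (RLE), no filter, a replicate block, thinning to equal depth, summing the WT day 100 libraries and leaving out each library were alternatives. The bias-adjusted quasi-likelihood test, the removal of the length trend (lowess span 0.3) and the contrast of day 120 with day 65 were added after seeing the data. Of the counts from 1 to 20, 69.2% to 85.8% in a library were even, and whether both mates of a pair were counted was not tested. Levels of the 9 genes are in CPM. Their precision rests on 13 reads or more per library, and p-values measure the spread between 2 libraries a condition.

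The members and lists were chosen with earlier results of these data known. Of the listed genes, those with the 3 largest called changes each way in the comparisons of term with day 120, of CF with WT and of distal with proximal lung were to be named. NR3C2, PER3 and FKBP4, and further values of PER2, FOS, GLUL and SFTPA1, fell outside that rule and were chosen after their values were seen. Neighbours in pattern were the 3 genes with the highest r among named genes with a mean log2 CPM of at least 1. A table that repeats the CF columns was not used.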

Additional observations from a re-analysis of the deposited data

Results flagged for a closer look

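The change of DUSP1 from day 120 to term in distal lung differed between the genotypes by 1.43 ± 0.41 on the log2 scale in a direct test of the difference (edgeR, adjusted p = 0.0430). Without CF distal replicate 2 at term, the animal with the highest level of hypoxia genes, the difference was 0.64. In proximal lung it was 1.86 ± 0.59 (adjusted p = 0.137).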

How the results depend on the processing

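The DEG limits of the study left 4 members between day 120 and term in WT proximal, 2 in WT distal and 0 in both CF courses, and 5, 3, 0 and 3 between day 65 and term in WT proximal, WT distal, CF proximal and CF distal lung (14.7%, 11.7%, 0.0762% and 4.7% of all genes). They left 3 proximal and 4 distal members in the mean of genotypes (0.973% and 7.91% of all genes), and 0 between consecutive time points, between genotypes and in the distal difference of courses. DESeq2 gave 16 calls in the 108 tests of consecutive time points, 4 in CF proximal lung from day 120 to term, 3 and 2 in the 36 tests at single prenatal times between genotypes (proximal and distal), 2 in the distal prenatal mean, 1 and 4 at term, and 1 in the proximal difference of courses, where it called 1.84% to 37% of all genes. The distal prenatal mean gave 2 calls with RLE, thinning, the length trend removed or the replicate block, where 6353 to 7015 of all genes were called instead of 6478. At term the distal count was 3 with the bias-adjusted test and 2 with the length trend removed, where 4062 and 3826 of all genes were called instead of 3056, and the latter gave 2 in CF proximal lung (252 of all genes instead of 70). Summing the WT day 100 libraries left 2 consecutive calls and 0 in the distal difference of courses. All genes called fell from 352 to 54 and from 486 to 76 in the steps from day 80 to 100 and from day 100 to 120 in WT proximal lung, from 456 to 17 in the latter step in WT distal lung, and from 1869 to 1294 in the difference of courses.

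The replicate block gave 0 calls in CF proximal lung from day 120 to term (0 of all genes), where FKBP5 read 3.33 (adjusted p = 0.0860), and 2 at term between genotypes in distal lung (3901 of all genes), where NR3C1 turned to 0.04. The labels tie 1 animal label to WT replicate 2 at day 65 and CF replicate 2 at day 100, and otherwise give replicate numbers no shared animal across time points or genotypes. Over 40 pairs of time points of 1 course, deviations of same-numbered libraries had r from -0.75 to 0.83, and 17 were over 0.1. Between WT and CF at 1 time point they had r from -0.25 to 0.40, and 5 of 10 were over 0.1. HSD11B2 in WT distal lung from day 120 to term was -0.02 with the length trend removed.

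With 1 library left out, counts of members called between day 120 and term were 7 to 8 (WT proximal), 5 to 8 (WT distal, 5 without replicate 2 at day 120), 0 to 5 (CF proximal, 5 without replicate 1 at day 120) and 4 to 5 (CF distal), and between day 65 and term 7 to 8, 5 to 7, 1 to 5 and 3 to 7. Consecutive calls were 3 to 8. Between genotypes they were 0 to 7 at single prenatal times in proximal lung (7 without CF replicate 1 at day 120) and 0 to 1 in distal lung, 1 to 4 and 1 to 3 for the prenatal mean, 0 to 3 in each region at term, 5 to 8 and 6 to 9 for the mean of genotypes and 0 to 3 and 0 to 2 for the difference of courses. Between regions they stayed at 0. Signs of uncalled values turned for HSD11B2 from day 120 to term in WT proximal (-1.11 to 0.32) and distal lung (-0.52 to 0.56), for NR3C1 in CF proximal lung (-1.42 to 2.64) and between genotypes at term (proximal -0.34 to 0.11, distal -0.66 to 0.69), and before term for PER1 in proximal (-0.45 to 0.55) and ZBTB16 in distal lung (-0.80 to 0.03). Except where a fit holds fewer samples, the cause was not tested. RLE moved the median of all genes by -0.04 to 0.05 against TMM. Of the single-gene results compared, 2 lost their call with RLE, 1 without the filter and 3 with the replicate block. Calls were gained by 1, 0 and 2 in the same order. Scaled by plain totals, 34 of 180 levels moved by more than 1 SD.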
